A study of Mus musculus with 2 samples.

Results

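The tight junction genes described here were 33 genes of the mouse ureter at E16.5, chosen by name from those measured: 18 claudins, 3 MARVEL proteins, 4 junctional adhesion molecules (counting their relative Esam), 4 scaffolds of the junctional plaque and 4 polarity proteins. They were read by 44 probes on 2 dual-colour oligonucleotide arrays that gave values for 29982 genes in all. On each array, RNA of pooled ureters from Pparg-cKO embryos was hybridised together with RNA of pooled control ureters, from female embryos on array 1 and from male embryos on array 2, with the dyes exchanged. Mutants were Pax2-cre/+; Pparg(fl/fl) and controls Pparg(fl/?), all on an NMRI background, so that every control carried at least one floxed allele of Pparg, which encodes a nuclear receptor that acts as a ligand-dependent transcription factor. Pax2 sequences drive the cre recombinase in epithelia that derive from the nephric duct, both of the ureter and of the collecting ducts, while the sample also holds the mesenchymal coat.

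Tight junctions encircle epithelial cells near the lumen and limit passage between the cells. Claudins and MARVEL proteins form strands in the membrane, some claudins sealing the gap and others lining pores for ions, while plaque scaffolds tie the strands to actin and polarity proteins position the belt. In the urothelium, the superficial cells that face the urine carry these junctions as part of the urine barrier. The arrays bear on the question of which of these transcripts change when the ureteric epithelium lacks Pparg.

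Which genotype carried which dye is unsettled, because the labels and the direction used in the study's text oppose each other. RNA A denotes the RNA that carried AlexaFluor647 (red) on array 1, and AlexaFluor555 (green) on array 2. RNA B denotes its partner. RNA A was control by the labels and Pparg-cKO under the study's text, and all ratios are log2 of the processed signal in RNA A over that in RNA B. The deposited fold changes followed that same quotient across probes (Pearson r of 0.996 for array 1 and 0.997 for array 2). Read as the titles put it, Pparg-cKO vs control, they too make RNA A the Pparg-cKO side, against the dye labels. A positive ratio thus means higher in control if the labels hold, and higher in Pparg-cKO if the text does. Dye and sex cannot be told apart, since both were exchanged from array 1 to array 2. The stage label of the mutant channels names an earlier embryonic day than the titles, and the titles were followed. Each RNA was a pool with no label of single embryos. The spread between the arrays is thus that of 2 pools per genotype together with the exchange of dye and sex. Pparg itself had signals in RNA A against RNA B of 11295 against 7430 on array 1 and 12888 against 7872 on array 2. The mean log2 ratio was 0.66 ± 0.076 (SD, n = 2 arrays), with a limma adjusted p of 0.615, and its probe was not placed relative to the deleted exons here. The study reports that the mutant epithelium still makes a Pparg transcript without those exons, with more of it at a later stage. The ratio of Pparg therefore does not settle which RNA was control.

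Of the 33 genes, 31 were tested, as at least 1 RNA was well above background on each array. The exceptions were the pore-forming claudin Cldn2 and Cldn16, which serves magnesium uptake in the kidney. Cldn2 had signals in RNA A against RNA B of 3.96 against 7.80 on array 1 and 1.11 against 8.79 on array 2, and only its RNA B on array 1 was well above background. Cldn16 had signals between 0.887 and 1.97 and was not well above background in any channel. Of the 31 tested genes, 23 reached a signal of 100 in the brighter RNA on each array, the level used by the study. The 8 tested genes below it were Cldn10, Cldn14, Cldn15, Cldn19, Cldn22, Cldn23, Cgnl1 and Pard6b, and their ratios carry the larger error of dim probes.

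Cldn3, a sealing claudin of many epithelia, was the only tight junction gene that differed 1.5-fold or more, one way on both arrays, with a signal of 100 or more. It was brighter in RNA A. Its signals, RNA A against RNA B, were 824 against 423 on array 1 and 1137 against 315 on array 2. The ranges of the 4 spots of the probe did not overlap between the RNAs on either array: RNA A ran from 770 to 886 where RNA B ran from 405 to 442 on array 1, and from 1053 to 1197 where RNA B ran from 297 to 325 on array 2. RNA A thus exceeded RNA B 1.95-fold on array 1 and 3.61-fold on array 2, or by 0.96 and 1.85 on the log2 scale. The spots of a probe are repeats on the same pools. Those of Tjp1 and Ocln also did not overlap between the RNAs on either array, although both genes turned sign between the arrays. The share of all genes with spots apart was not counted.

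The mean log2 ratio of Cldn3 was 1.41 ± 0.63 (SD, n = 2 arrays), a 2.65-fold difference, and the gap between the arrays was larger than the SD over spots, which was 0.041 on array 1 and 0.032 on array 2. Over all 29982 genes, 47 passed the same filter towards RNA A, or 0.157%, and Cldn3 ranked 11 among those 47 by mean log2 ratio. Towards RNA B, 0.23% of genes passed and none of the tight junction genes did. In opposite directions on the arrays, 0.43% of genes passed, again with none of the 33. Only genes at a signal of 100 could pass, 15008 of those tested and 23 of the 33, so the shares among such genes are larger. limma, fitted over 21429 genes with Benjamini-Hochberg adjustment, called 0.126% of genes towards RNA A and 0.187% towards RNA B, and 0 tight junction genes. Cldn3 had an adjusted p of 0.0921 in that fit, and between 0.0616 and 1 over the other ways of processing. At an unadjusted p under 0.05, limma gave 1.68% of all genes towards RNA A, with Cldn3 as the 1 tight junction gene, and 2.1% towards RNA B, with none. With a single residual degree of freedom per gene, the precision was limited by the number of arrays.

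Cldn3 lies on chromosome 5 (GRCm38.p6, 134986214 to 134987476, plus strand) beside Cldn4 (134945123 to 134946934, minus strand), which encodes another sealing claudin, with 39279 bases between the genes. The 250 bases before each transcription start, from RefSeq, are shown 5′ to 3′ on the strand of the gene, because Cldn3 passed the filter and its neighbour did not. They were searched on both strands for AGGTCA, the hexamer that PPARG and its partner RXR bind in pairs, and matches are in capitals. They span chr5:134985964-134986213 for Cldn3 and chr5:134946935-134947184 for Cldn4.
Cldn3: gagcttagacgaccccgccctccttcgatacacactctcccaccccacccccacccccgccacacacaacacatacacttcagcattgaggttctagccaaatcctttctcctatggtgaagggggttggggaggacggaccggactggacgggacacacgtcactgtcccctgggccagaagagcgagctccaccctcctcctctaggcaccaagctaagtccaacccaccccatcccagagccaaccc
Cldn4: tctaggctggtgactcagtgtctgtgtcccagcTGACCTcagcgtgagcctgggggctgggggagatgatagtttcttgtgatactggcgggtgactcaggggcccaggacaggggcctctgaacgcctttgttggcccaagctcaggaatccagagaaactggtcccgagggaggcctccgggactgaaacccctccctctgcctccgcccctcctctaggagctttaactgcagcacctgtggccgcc
The Cldn3 window held no match and the Cldn4 window held 1, on the opposite strand. Of the 32851 promoter windows of this length in the table, 14.0% held at least 1 match. The pair of hexamers with 1 base between them (AGGTCANAGGTCA) occurred in 11 of these windows, or 0.0335%, and in none of the 39 windows found for 26 of the tight junction genes. Among those 26 genes, Cldn4, Cldn7, Cldn14, Ocln and Tjp3 had the hexamer in at least 1 window, in 8 of the 39 windows in all. A match is a stretch of letters and was not examined for binding.

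Cldn4 had signals in RNA A against RNA B of 968 against 965 on array 1 and 985 against 1381 on array 2. The spots overlapped between the RNAs on array 1 and lay apart on array 2, where RNA B was brighter. Its log2 ratios of 0.00 and -0.49, with a mean of -0.24 ± 0.35 (SD, n = 2 arrays), stayed within 1.5-fold on both arrays. A further probe of Cldn4 gave -0.28 and -0.08. Neither probe of Cldn4 moved towards RNA A as that of Cldn3 did, and the difference between these neighbours was not tested.

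**Figure D1:**
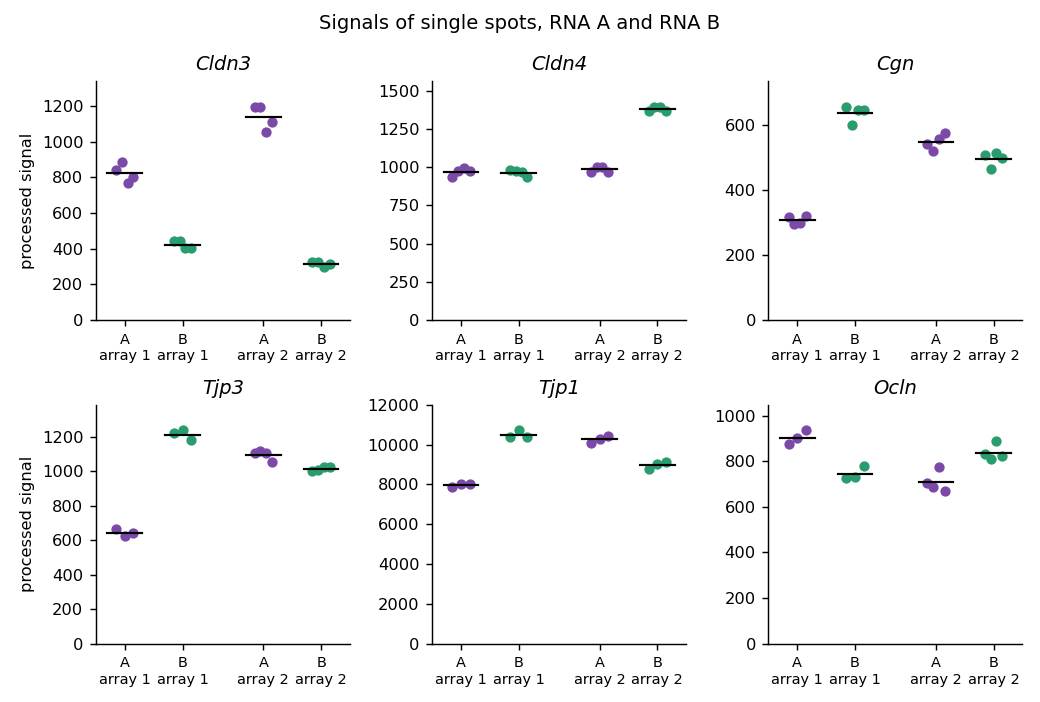
Processed signal (linear axis from 0) of the single spots of 6 tight junction probes in RNA A (purple) and RNA B (green) on array 1 (female) and array 2 (male), with lines at the geometric mean. The Cldn3 spots of RNA A lie above those of RNA B on both arrays, whereas Cgn and Tjp3 lie apart mainly on array 1.

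The other claudins stayed within 1.5-fold on both arrays wherever their signal reached 100. Cldn8, a claudin known from the distal nephron and collecting duct, had signals in RNA A against RNA B of 9329 against 9293 on array 1 and 8988 against 7717 on array 2. Its log2 ratios were 0.01 and 0.22. Cldn11, known from myelin and the Sertoli cell barrier, had signals of 5827 against 6293 on array 1 and 6733 against 5634 on array 2. The ratio of Cldn11 turned from -0.11 to 0.26, so that the green channel was the brighter on both arrays.

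Cldn5, the claudin of endothelial cells, had log2 ratios of 0.18 and 0.37. The neighbours Cldn6 and Cldn9, known from embryonic epithelia, had 0.37 and 0.26, and 0.54 and -0.04. Cldn12 had 0.08 and 0.14, whereas Cldn1, which seals the epidermis, had 0.22 and -0.29. Cldn7, found along the lateral membrane of epithelial cells, had -0.43 and 0.24. These ratios include both signs, and Cldn5, Cldn6, Cldn8 and Cldn12 joined Cldn3 in being brighter in RNA A on both arrays. For Cldn8 on array 1 this was by 0.01 only, with single spots of both signs. Cldn15, Cldn22 and Cldn23 had RNA B as the brighter one on both arrays, and all 3 had signals below 100 on at least 1 array. Among the dim claudins, Cldn10 (0.17 and -0.70) and Cldn19 (0.32 and -0.77) passed 1.5-fold on array 2 alone, with signals of at most 72.2 and 13.1, and Cldn14 had -0.15 and 0.15. Over the 16 tested claudins, the median log2 ratio was -0.02.

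None of the MARVEL protein and adhesion molecule genes passed 1.5-fold on either array by the probe that stood for the gene. Occludin (Ocln), the best known MARVEL protein of the strands, had signals in RNA A against RNA B of 903 against 744 on array 1 and 708 against 837 on array 2. The ratio of Ocln turned from 0.28 to -0.24, with red the brighter channel on both arrays. Marveld2, which encodes tricellulin of the tricellular contacts, had -0.03 and 0.16, and Marveld3 had -0.41 and 0.21. A further probe of Marveld3, also well above background, gave -0.10 and 0.64, with signals of 108 against 69.2 on array 2, and thus passed 1.5-fold on that array.

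F11r, which encodes JAM-A, had signals in RNA A against RNA B of 6478 against 6782 on array 1 and 7448 against 7406 on array 2. Its log2 ratios of -0.07 and 0.01 gave a mean of -0.03 ± 0.053 (SD, n = 2 arrays). Jam3, which is also made by endothelial and mesenchymal cells, had signals of 6137 against 4945 on array 1 and 5275 against 5734 on array 2, with ratios of 0.31 and -0.12. Jam2 had 0.54 and 0.17, and Esam, an adhesion molecule of endothelial cells, had 0.38 and -0.09. A whole ureter also holds blood vessels, and the 13 endothelial markers were all tested, had a median log2 ratio of 0.11 and summed to signals in RNA A against RNA B of 21936 against 20524 on array 1 and 23442 against 23124 on array 2. The part of the endothelium in the ratios of Cldn5, Jam2 and Esam was not tested.

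**Figure D2:**
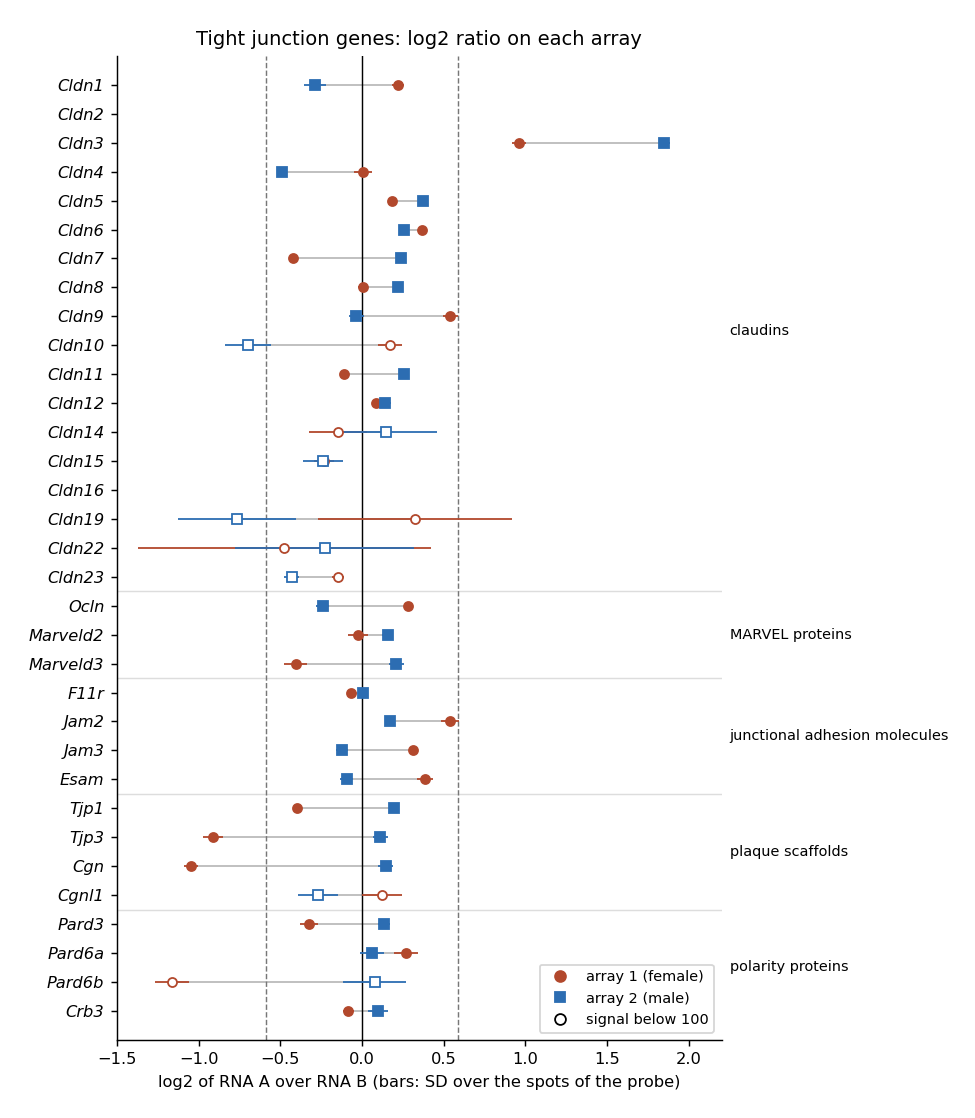
Log2 ratio of RNA A over RNA B for each tight junction gene on array 1 (red circles, female) and array 2 (blue squares, male), with bars for the SD over the spots of the probe and dashed lines at 1.5-fold. Cldn3 is the only gene beyond a dashed line on the same side on both arrays, while Cgn and Tjp3 pass on array 1 alone, open symbols mark signals below 100, and Cldn2 and Cldn16 were not tested and have no point.

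Of the 4 plaque scaffolds, Cgn and Tjp3 passed 1.5-fold on array 1 and none passed on array 2. Cingulin (Cgn), which links the plaque to actomyosin, had signals in RNA A against RNA B of 308 against 636 on array 1 and 548 against 496 on array 2. Its log2 ratios were -1.05 and 0.14. Tjp3, which encodes ZO-3, had signals of 644 against 1213 on array 1 and 1096 against 1014 on array 2, with ratios of -0.91 and 0.11. On array 1 the spots of both genes lay lower in RNA A without overlap. On array 2 they lay higher in RNA A, also without overlap but within 1.5-fold. The green channel was thus the brighter on both arrays for both genes, and the part of the dye in these ratios was not tested.

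Tjp1, which encodes ZO-1, the scaffold shared by epithelia and other cells, had signals in RNA A against RNA B of 7966 against 10494 on array 1 and 10276 against 8956 on array 2. Its log2 ratios were -0.40 and 0.20. Cgnl1, which encodes paracingulin, was dim, with 0.12 and -0.27. The median over these 4 scaffolds was -0.66 on array 1 and 0.13 on array 2. The mean ratios were -0.45 ± 0.84 for Cgn, -0.40 ± 0.73 for Tjp3 and -0.10 ± 0.42 for Tjp1 (SD, n = 2 arrays), with an SD above the size of the mean in each, and the limma adjusted p was 0.999946 for each. On array 1 alone, 2.12% of all genes passed 1.5-fold towards RNA B and 1.07% towards RNA A at that signal, and the tight junction genes past it were Cgn and Tjp3 towards RNA B and Cldn3 towards RNA A. On array 2 alone, 1.63% and 1.0% passed, and Cldn3 was the only one of the 33. These shares are over all 29982 genes, including those too dim to pass.

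Of the 4 polarity genes, 3 had a negative ratio on array 1 and a positive one on array 2, and none passed 1.5-fold at a signal of 100. Pard3, the scaffold of the PAR complex, had signals in RNA A against RNA B of 1637 against 2049 on array 1 and 2254 against 2056 on array 2, with log2 ratios of -0.32 and 0.13. All 4 of its probes were well above background, and their mean ratios differed in sign over a range of 0.18. Crb3, which encodes the Crumbs protein of the apical membrane, had -0.08 and 0.10, and Pard6a had 0.27 and 0.06. Pard6b, a partner of atypical protein kinase C, had -1.17 and 0.08 at signals of at most 12.1. Its RNA A, at a signal of 5.21, was not well above background on array 1, as was also the case for Cldn22 at 5.22. Those array 1 ratios thus rest on a signal not clearly separated from background.

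Over the 31 tested tight junction genes, the median log2 ratio was -0.03, beside 0.01 over all 21429 genes tested, and -0.03 without Cldn3. Of the 31, 7 had the higher signal in RNA A on both arrays (22.6%, beside 21.6% of all genes tested) and 3 in RNA B (9.68%, beside 17.4%). The green channel was the brighter on both arrays for 12 genes (38.7%, beside 32.6%) and the red channel for 9 (29.0%, beside 28.4%). Thus 21 of 31 turned sign between the arrays. Leaving out Cldn3, the mean ratios of genes that reached a signal of 100 lay between -0.45 and 0.36.

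**Figure D3:**
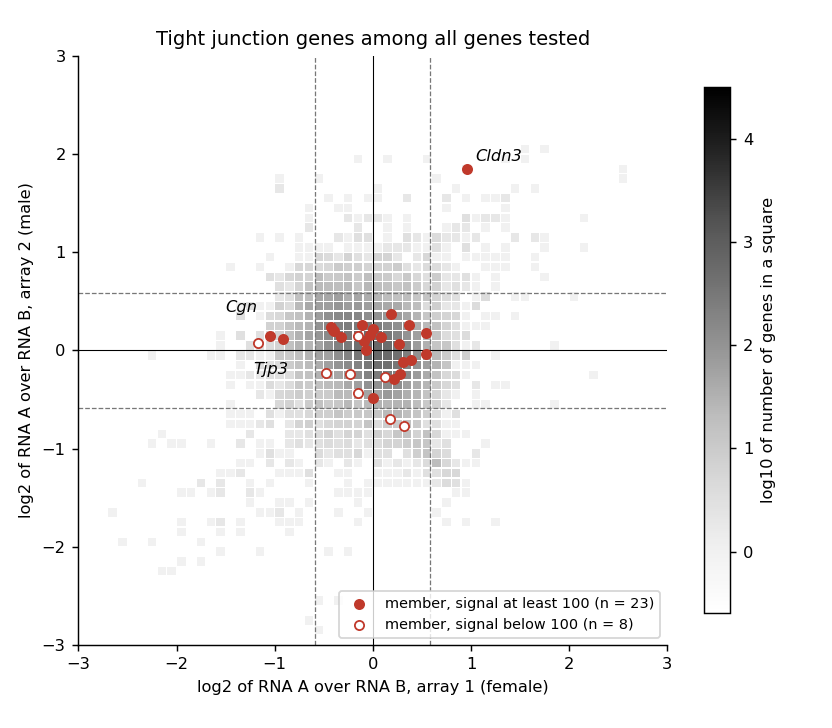
Log2 ratio of RNA A over RNA B on array 1 against that on array 2, with grey squares for the number of tested genes, red points for the 31 tested tight junction genes and dashed lines at 1.5-fold (8 genes, none of them a tight junction gene, lie outside the axes). Most tight junction genes lie within the central cloud, Cldn3 lies at 0.96 and 1.85, and Cgn and Tjp3 lie to the left.

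A wider list of tight junction genes was given by its counts. Of 31 further names, 29 were on the array and 26 were tested, with a median log2 ratio of 0.02. None passed the filter one way and none was called by limma. Ybx3, which encodes the ZO-1-associated nucleic acid binding protein, passed in opposite directions: its signals, RNA A against RNA B, were 15084 against 23776 on array 1 and 26644 against 16343 on array 2. Of the 26, 13 were brighter in green on both arrays, 3 in red, 7 towards RNA A and 3 towards RNA B.

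Ildr1 and Lsr, which place tricellulin at tricellular contacts and were chosen after their values were seen to resemble those of Cgn and Tjp3, had ratios of -1.11 and -0.08, and of -0.90 and 0.21. All 13 adherens junction genes were tested, with a median of -0.16, or -0.40 on array 1 and 0.06 on array 2. None passed one way on both arrays, whereas Cdh3, which encodes P-cadherin, passed in opposite directions with ratios of -0.73 and 0.93. Of those chosen in the same way, Plekha7, an adherens junction protein, had -0.95 and 0.02, and Cdh1, which encodes E-cadherin, had -0.59 and 0.15.

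Epithelial markers were lower in RNA A as well, mainly on array 1. The 20 pan-epithelial genes were all tested and had medians of -0.59 (array 1) and -0.05 (array 2) on the log2 scale, with summed signals in RNA A against RNA B of 81330 against 113277 on array 1 and 100483 against 109225 on array 2. The epithelial median was thus low on array 1, where Cgn and Tjp3 had their low ratios, and closer to 0 on array 2, and the part of epithelial RNA in those ratios was not tested. In such bulk samples, fewer cells of a type and less RNA per cell cannot be told apart.

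Cldn3 ran the other way on that array. It also ran opposite to the 6 superficial cell markers, each of which was brighter in RNA B on array 1 and array 2, 4 of them past the filter. Those 6 genes had a median of -1.01 and summed signals in RNA A against RNA B of 50739 against 82481 on array 1 and 49171 against 86415 on array 2. The 4 basal cell genes had a median of 0.44, and none of them passed the filter. Their summed signals were 4492 against 3885 on array 1 and 4797 against 3812 on array 2. Of the 4, 3 had positive ratios on both arrays. Trp63, used in the study for basal and intermediate cells alike, had -0.31 on array 1 and 0.10 on array 2. On array 1 the signals of Trp63 were 1166 against 1443, and those of Krt15 1963 against 1341. The gap of Krt15 was thus larger than that of the whole list on array 1.

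Collecting duct genes were set beside Cldn3 as well, because the ureter joins the kidney. Of these 10 genes, 9 were tested with a median of 0.12, and Fxyd4 passed the filter towards RNA A. Fxyd4, which encodes a regulator of the sodium pump, had signals in RNA A against RNA B of 691 against 406 on array 1 and 684 against 233 on array 2. The water channel Aqp2, which defines principal cells of the collecting duct, had signals of 89.9 against 80.3 on array 1 and 54.8 against 51.8 on array 2, and stayed within 1.5-fold. The sodium channel subunits Scnn1b (-0.42 and -0.23) and Scnn1g (-0.21 and -0.90) ran towards RNA B on both arrays. The summed signals of the list were 1762 against 1556 on array 1 and 1722 against 1225 on array 2. These sums include Fxyd4, whose gap on array 1 was larger than that of the whole list. Without Fxyd4, the other genes together were slightly brighter in RNA B on array 1 and slightly brighter in RNA A on array 2. The part of the list in the ratio of Cldn3 was not tested. Median ratios of the remaining lists were -0.80 for 6 tested nephron genes, -0.24 for mesothelium, 0.07 for peripheral glia, 0.08 for Sertoli cells and gonad, -0.47 for liver (0.17 on array 1 and -1.30 on array 2) and 0.01 for red blood cells.

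**Figure D4:**
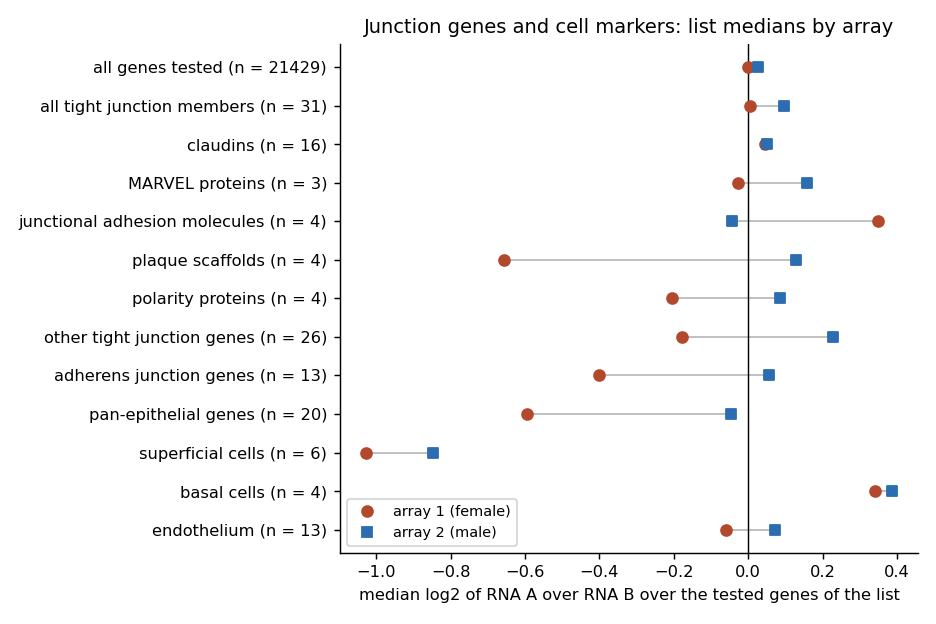
Median log2 ratio of RNA A over RNA B over the tested genes of each list on array 1 (red circles) and array 2 (blue squares). Plaque scaffolds, adherens junction genes and pan-epithelial genes have medians of -0.66, -0.40 and -0.59 on array 1 and medians between -0.05 and 0.13 on array 2, whereas the claudins have medians of 0.04 and 0.05 and the superficial cell genes low medians on both.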

How the data were processed

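The deposited processed intensities came from Feature Extraction 10.7.3.1, per the file headers, and were background-subtracted and dye-normalised within each array. The deposited mean and background intensities, and a deposited table of signed fold changes by the authors, served as alternatives. Of 157716 probe spots per array, those marked as outliers (5705 and 5579) were left out, and no spot was saturated. On array 1, 80.3% of green and 70.4% of red spots were well above background, and on array 2, 80.4% and 70.4%.

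Log2 signals were averaged over spots, in general 4 per probe. A gene was its probe with the highest mean signal, and 25 of the 33 genes had a single probe. The filter asked for 1.5-fold or more, one way on each array, and for the brighter RNA to reach a signal of 100. limma 3.58.1 (R 4.3.3, lmFit with an intercept, eBayes) was fitted to genes well above background in at least 0.5 of spots, adjusted p under 0.05. On simulated data for this comparison of the RNAs (21429 genes, 200 changed, spread as fitted), limma recovered 0% of genes changed by 1 on the log2 scale. It recovered 100% of those changed by 2, with 18 false calls. The 1.5-fold part of the filter, without the signal of 100, recovered 80% and 100%, and its false calls were not counted. With the spread set equal for all genes, limma recovered 85% of genes changed by 1, with 4 false calls. The simulated arrays had no dye or sex shift, so these shares do not measure how reliable the filter was on the real arrays. Signals are printed for members past 1.5-fold on an array at that signal, for the 5 of highest signal, and for the brightest of a role that had none, and for others where a result turns on them. Members, lists and the rule were chosen with earlier results of these data known. Promoters were matched by symbol to RefSeq for 26 of 33 genes, without Cldn8, Cldn9, Cldn23, Marveld3, Jam2, Jam3 and Esam.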

Additional observations from a re-analysis of the deposited data

How the results depend on the processing

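Processing alternatives were normexp with loess, loess on processed signals, centring on either median, the deposited table, the mean over probes, an intensity trend, dim probes kept, other intensity and fold thresholds, and leaving out each array. Centring on the median of all genes with values was chosen after seeing the data. limma called 0 tight junction genes in every fit over both arrays, and no test could be made with 1 array. Over all genes it called 27 towards RNA A and 40 towards RNA B, but 1 in all with normexp and loess, 28 with loess on processed signals, and 0 with the deposited table or with dim probes kept. Cldn3 kept its direction throughout. At 2-fold on both arrays, 0 genes passed towards RNA A, since Cldn3 was 1.95-fold on array 1. With no intensity threshold, 1 gene passed towards RNA B (Cldn2) and 1 in opposite directions (Cldn16), both dim. Leaving out each array in turn, 0 to 2 genes passed towards RNA B, the 2 being Cgn and Tjp3 without replicate 2.

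The median of -0.03 became 0.065 at a signal of at least 100, and 0.0046 to 0.0959 with an array left out. Of the 10 genes named by rule, 8 reversed with an array left out, as they had opposite signs on the arrays. Over the arrays left out, log2 ratios ranged from -1.05 to 0.14 for Cgn, -0.91 to 0.11 for Tjp3, -0.40 to 0.20 for Tjp1, -0.066 to 0.0080 for F11r, -0.12 to 0.31 for Jam3, -0.24 to 0.28 for Ocln, -0.32 to 0.13 for Pard3 and -0.11 to 0.26 for Cldn11. Ocln also reversed to -0.016 with normexp and loess, and the cause was not tested. Each array pairs both RNAs in 1 ratio, so the fit to these ratios already used that pairing, and no further pairing was made.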
